A study of Arabidopsis thaliana with 10 samples.

Results

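The genes described here are 6 Arabidopsis genes whose transcript counts lay above wild type in heat-grown plants and in both generations of their unstressed progeny. They are LEC (AT3G15356), AT1G68440, AT1G70000, AT5G19875, PDX1L4 (AT2G38210) and AT2G04795, out of 33602 genes in the count table. They were picked by name for exactly that pattern, so their differences from wild type are given as a description, with no test. All 6 matched the label: each had all 6 libraries of the 3 generations above both wild-type libraries. This holds for 1388 of the 19768 genes with enough counts to test, or 7.02%, and for 950 of these both sgs3-12 libraries were above as well (4.81% of all tested genes).

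The true leaves known as the fifth were taken from plants aged 4 weeks, and their polyA RNA was sequenced in 10 libraries of 5 groups with 2 libraries each. Wild type was Col-0 kept at 22 °C, and generation 1 was Col-0 moved to 30 °C at 1 week of age and grown there, called 30 °C-grown plants or generation 1 below. Generation 2 was the unstressed progeny of the 30 °C-grown plants, and generation 3 the unstressed progeny of generation 2, all Col-0. The remaining group was unstressed plants of the mutant sgs3-12, named for the gene SGS3, which takes part in making small interfering RNAs. Seedlings were kept on agar plates for 1 week and then on soil, in long days of 16 h of light. Whether libraries of the same group represent different plants is not stated in the labels, so the p-values below reflect the spread of these libraries alone, which may be technical.

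Library totals ranged from 17674090 to 23145159 counts. Levels are CPM, counts scaled to a common library size with TMM factors, which correct for differences in library composition. SGS3, the gene named in the mutant, had 24.1 and 35.1 CPM in wild type and 9.40 and 8.02 CPM in sgs3-12, but also 9.48 and 7.87 CPM in generation 2. The leaf markers RBCS1A, LHCB1.3 and RCA summed to 31860 to 76940 CPM. The meristem and flower genes STM and LFY and the seed genes CRU3 and OLEO1 had 0 counts in every library, and the floral gene AG was at 0.632 to 5.94 CPM. The root genes SCR, EXP7 and COBL9 summed to 15.8 to 50.7 CPM, nearly all of it SCR. The part of other organs in the results was not tested. Some libraries stood apart from their group: library 1 of generations 2 and 3 by transcript length, and wild-type libraries 1 and 2 from each other in genes of the circadian clock. Library 1 of generations 2 and 3 was also far below library 2 in the clock genes CCA1 and LHY (below). Fold changes of the 6 genes that move by over 1.5 times without a library are given below with and without it. Those of other genes, and the medians of gene lists, are given with all libraries only. In leaf RNA as a whole, more cells of a type and more RNA per cell cannot be told apart.

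No common pathway is stated for the 6 genes. LEC encodes a protein of the legume lectin family, secreted proteins that resemble sugar-binding lectins of legume seeds. PDX1L4 is a short relative of the PDX1 proteins, which together with PDX2 form the enzyme that makes pyridoxal phosphate, the active form of vitamin B6. AT1G70000 encodes a MYB-like transcription factor of the SHAQKY class, also known as MYBD, which promotes anthocyanin accumulation. AT1G68440, AT5G19875 and AT2G04795 encode proteins of no stated function. The reference annotation places AT5G19875 in the response to oxidative stress.

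By their loci in the deposited table (TAIR10), the genes lie on 4 chromosomes and overlap no other gene there. LEC is at chromosome 3, 5174402 to 5175469, on the minus strand, and encodes 271 residues. AT1G68440 is at chromosome 1, 25658033 to 25659273, plus strand, with 306 residues. AT1G70000 is at chromosome 1, 26363093 to 26364759, minus strand, with 261 residues. AT5G19875 is at chromosome 5, 6718341 to 6718995, plus strand, with 123 residues. PDX1L4 is at chromosome 2, 16007012 to 16007690, plus strand, with 79 residues, and AT2G04795 at chromosome 2, 1682953 to 1683475, plus strand, with 95. Of the 12 genes that flank them, 10 never exceeded 5.20 CPM in a library. The others were AT3G15351 beside LEC, at 4.57 to 8.76 CPM, and AT2G04790 beside AT2G04795, at 10.7 to 35.7 CPM.

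The genes were picked by name for their pattern in counts, and counts can vary with gene structure. In the reference annotation 5 of them have 1 exon, all but AT1G70000 with its 3, against 16.3% of the 19161 tested genes with a reference transcript. Their longest transcripts run from 759 to 1728 bases, all under the median of 1754 bases for tested genes.

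The 300 bases upstream of each gene's annotated start (TAIR10.1, RefSeq) were searched for the cores of the heat shock element, which heat shock factors bind (GAANNTTC and TTCNNGAA), and for the G-box CACGTG, the W-box core TTGAC and the evening element AAATATCT, on both strands. The windows of LEC and AT5G19875 are shown because they are the ones that hold a heat shock element core, and capitals mark every match to a searched motif. LEC has GAATATTC at positions -13 to -6 from the start, in chr3:5175524-5175823, minus strand. AT5G19875 has TTCCAGAA at -290 to -283 and a G-box at -23 to -18, in chr5:6717906-6718205, plus strand.
LEC: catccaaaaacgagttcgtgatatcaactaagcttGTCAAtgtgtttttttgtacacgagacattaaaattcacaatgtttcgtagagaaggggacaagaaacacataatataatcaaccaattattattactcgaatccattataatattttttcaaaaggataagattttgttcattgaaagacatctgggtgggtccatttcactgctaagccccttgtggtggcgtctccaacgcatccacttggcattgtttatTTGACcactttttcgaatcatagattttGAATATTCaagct
AT5G19875: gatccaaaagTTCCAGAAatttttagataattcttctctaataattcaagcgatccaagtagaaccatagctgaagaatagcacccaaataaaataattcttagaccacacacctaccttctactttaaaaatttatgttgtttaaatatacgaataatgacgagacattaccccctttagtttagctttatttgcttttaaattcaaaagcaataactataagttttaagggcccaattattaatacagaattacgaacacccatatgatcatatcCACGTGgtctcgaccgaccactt

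Across the 6 windows, GAANNTTC was found in 1 and in 11.5% of all 27443 coding-gene promoters of this length, and TTCNNGAA in 1 and in 9.38%. The G-box was found in 1 window against 7.09% of all promoters, the W-box core in 4 windows against 50.4%, and the evening element in 0 against 5.64%. The W-box core was in LEC, AT1G68440, AT1G70000 and AT2G04795. The matches describe these letters only.

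PDX1L4 is nearly identical to part of PDX1.1 (AT2G38230), a catalytic PDX1 gene close by on chromosome 2. Over 472 bases their transcripts are 99.8% identical, and over the first 230 coding bases they differ at 1 base. The shared coding stretch is shown because reads from it could come from either gene. The capital marks the only difference, A228T, counted from 1 at the first coding base, with the PDX1L4 base first.
PDX1L4: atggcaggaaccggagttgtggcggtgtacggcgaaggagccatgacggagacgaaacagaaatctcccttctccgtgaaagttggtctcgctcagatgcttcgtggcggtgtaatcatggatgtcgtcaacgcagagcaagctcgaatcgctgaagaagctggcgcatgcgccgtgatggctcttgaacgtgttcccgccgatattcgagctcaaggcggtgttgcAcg
PDX1.1: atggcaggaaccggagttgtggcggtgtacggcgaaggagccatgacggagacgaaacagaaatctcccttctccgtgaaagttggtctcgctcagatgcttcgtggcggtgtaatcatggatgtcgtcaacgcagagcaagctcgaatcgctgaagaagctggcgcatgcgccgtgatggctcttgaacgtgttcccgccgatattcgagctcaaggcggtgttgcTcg

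The treatment of reads that match both genes is not stated in the labels or the table, so the values of PDX1L4 are uncertain. The closest protein to LEC is AT3G16530, 86.7% identical over 271 residues, with transcripts 84.0% identical. For the remaining genes the closest proteins were more distant: AT5G35732 for AT2G04795 (65.0% identical), AT1G25400 for AT1G68440 (54.8%), AT5G47390 for AT1G70000 (49.3%) and AT2G31940 for AT5G19875 (44.1%).

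LEC, the lectin gene, was at 13.2 and 13.4 CPM in wild type. The plants in the heat had 68.5 and 48.9 CPM, their progeny 79.2 and 170.1 CPM (generation 2) and 107.7 and 52.0 CPM (generation 3), and sgs3-12 had 25.3 and 23.1 CPM. The wild-type pair differed by only 1.02 times, and the lowest generation library, the second one of the 30 °C-grown plants, was 3.64 times the higher of that pair. The sgs3-12 libraries lay above wild type and below every library of the 3 generations.

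AT1G68440 was at 25.6 and 10.1 CPM in wild type, at 129 and 90.6 CPM in generation 1, at 77.4 and 125.6 CPM in generation 2, at 69.2 and 140.1 CPM in generation 3, and at 118 and 149.5 CPM in sgs3-12. Its wild-type libraries differed by 2.54 times, the widest gap in wild type among the 6 genes. The lowest generation library was 2.71 times the higher wild-type library.

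AT1G70000, the MYB-like gene, was at 8.97 and 3.89 CPM in wild type, at 29.6 and 29.0 CPM in generation 1, at 33.1 and 27.2 CPM in generation 2, at 25.9 and 55.0 CPM in generation 3, and at 37.2 and 55.2 CPM in sgs3-12. The 30 °C-grown libraries differed by 1.02 times, while those of generation 3 differed by 2.12 times.

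AT5G19875 was at 2.03 and 2.69 CPM in wild type, at 14.8 and 19.4 CPM in generation 1, at 8.24 and 22.01 CPM in generation 2, at 8.82 and 20.7 CPM in generation 3, and at 15.0 and 39.4 CPM in sgs3-12. Library 1 was the lower one in each group, and the pairs differed by 2.67 times in generation 2, 2.35 times in generation 3 and 2.63 times in sgs3-12.

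PDX1L4 was at 0.973 and 0.695 CPM in wild type, which are 22 and 15 counts. It was at 5.05 and 4.90 CPM in generation 1, at 5.10 and 4.18 CPM in generation 2, at 3.78 and 12.4 CPM in generation 3, and at 6.32 and 11.0 CPM in sgs3-12. Its generation 3 libraries differed by 3.29 times, the widest gap of any pair among the 6 genes.

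AT2G04795 was at 2.65 and 1.72 CPM in wild type, at 12.3 and 9.94 CPM in generation 1, at 8.36 and 7.48 CPM in generation 2, at 12.2 and 12.4 CPM in generation 3, and at 7.48 and 13.1 CPM in sgs3-12. It varied least over the 6 generation libraries, by 1.66 times, against 3.48 times for LEC.

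**Figure D1:**
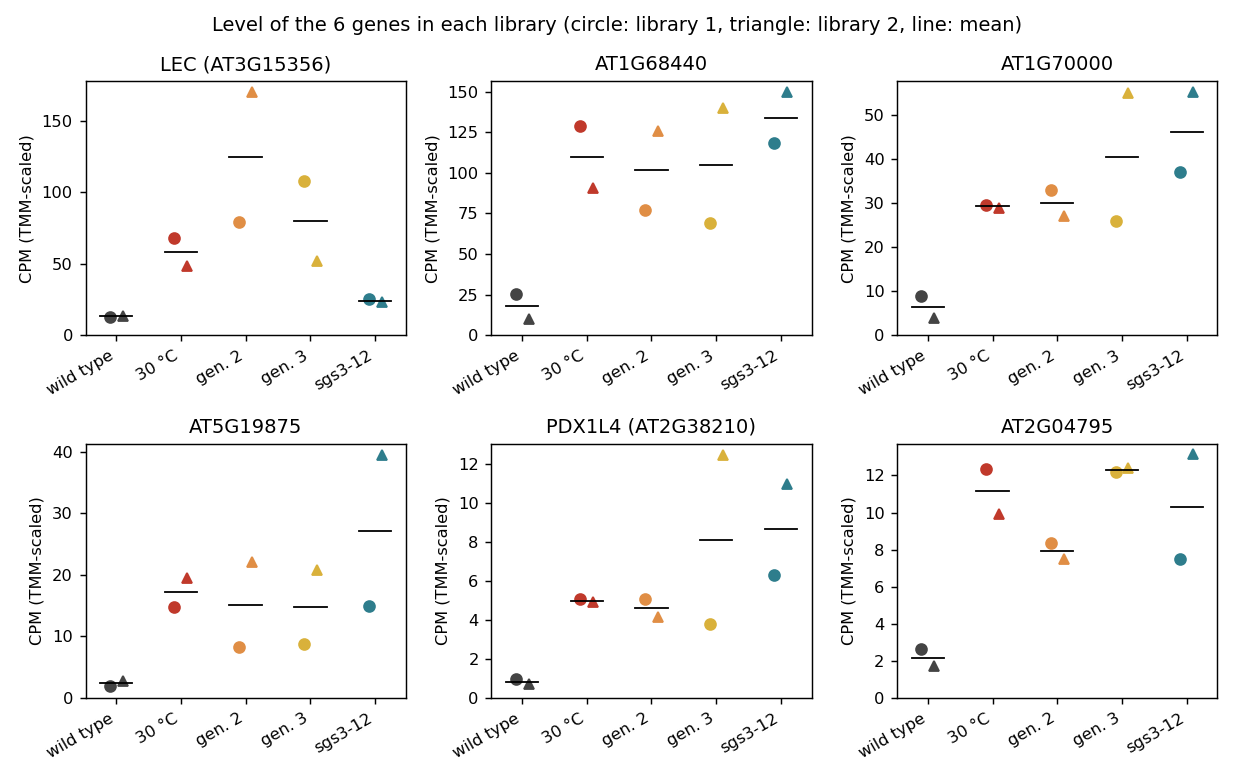
TMM-scaled CPM of the 6 genes (vertical axis, one panel per gene) in the 5 groups, with library 1 as a circle, library 2 as a triangle and the group mean as a line. Both wild-type points lie below all points of the other groups in every panel, and LEC in sgs3-12 (25.3 and 23.1 CPM) lies below the 3 generations.

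Relative to wild type, the fitted log2 fold changes of the 6 genes ran from 2.14 to 2.86 for generation 1, from 1.85 to 3.23 for generation 2 and from 2.49 to 3.28 in generation 3. The lowest of these was AT2G04795 in generation 2, at 1.85 ± 0.41 (SE; each group had n = 2), or 3.62 times wild type. The highest was PDX1L4 in generation 3, at 3.28 ± 0.63, or 9.69 times wild type. These comparisons share the same wild-type libraries, and the choice of the genes fixes their direction. Some values rested on 1 library. Without wild-type library 1, AT1G68440 was at 3.33 to 3.45 and AT1G70000 at 2.91 to 3.37 over the 3 generations. Without library 2 of generation 2, LEC was at 2.42 and AT5G19875 at 1.65 there. Without library 2 of generation 3, PDX1L4 was at 2.17, AT1G70000 at 2.01, AT1G68440 at 1.96 and AT5G19875 at 1.90, while without library 1 PDX1L4 was at 3.89 and LEC at 1.97. The share of all tested genes with a pair above the wild-type pair was 26.3% for generation 1, 16.8% for generation 2 and 21.1% for generation 3.

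Among the 1388 genes with all 6 generation libraries above wild type, ranked by the gap between the lowest of these and the higher wild-type library, LEC stood at place 2, PDX1L4 at 3, AT1G70000 at 5, AT5G19875 at 7, AT1G68440 at 8 and AT2G04795 at 13. The gaps, on the log2(CPM + 0.5) scale, were 1.82 for LEC and 1.34 for AT2G04795. The 6 were picked by name and not by a limit on this gap, and genes such as AT5G01880 at place 1 (2.91) and AT5G58770 at place 4 (1.53), named after their values were seen, are not among them.

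The mutant sgs3-12 had no part in choosing the genes, but the wild-type libraries did, so this comparison is also given with no test. All 6 genes had both sgs3-12 libraries above both wild-type libraries, which holds for 27% of all tested genes and for 68.4% of the 1388 genes. For the 5 genes other than LEC the log2 fold change of sgs3-12 against wild type ran from 2.23 to 3.52, or 4.71 to 11.5 times. It was 3.52 ± 0.71 for AT5G19875, 3.36 ± 0.63 for PDX1L4, 2.91 ± 0.59 for AT1G68440, 2.84 ± 0.54 for AT1G70000 and 2.23 ± 0.42 for AT2G04795. Without wild-type library 1, AT1G68440 was at 3.73 and AT1G70000 at 3.57, and without wild-type library 2 they were at 2.37 and 2.34. AT5G19875 was at 2.64 without library 2 of sgs3-12. The mean of the sgs3-12 libraries was 0.986 times the mean of the 6 generation libraries for AT2G04795 and 1.27 to 1.73 times for the other 4.

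LEC differed, with a log2 fold change of 0.86 ± 0.49 in sgs3-12 and a 95% interval from -0.25 to 1.97. The interval describes the spread and is not a test, since the wild-type libraries took part in choosing the gene. Its mean in sgs3-12 was 0.276 times its mean over the generations. Libraries of sgs3-12 above wild type and below all 6 generation libraries were seen for 73 of all tested genes (0.369%). By definition such genes are among the 1388 with the pattern by which LEC was chosen, of which they are 5.26%.

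**Figure D2:**
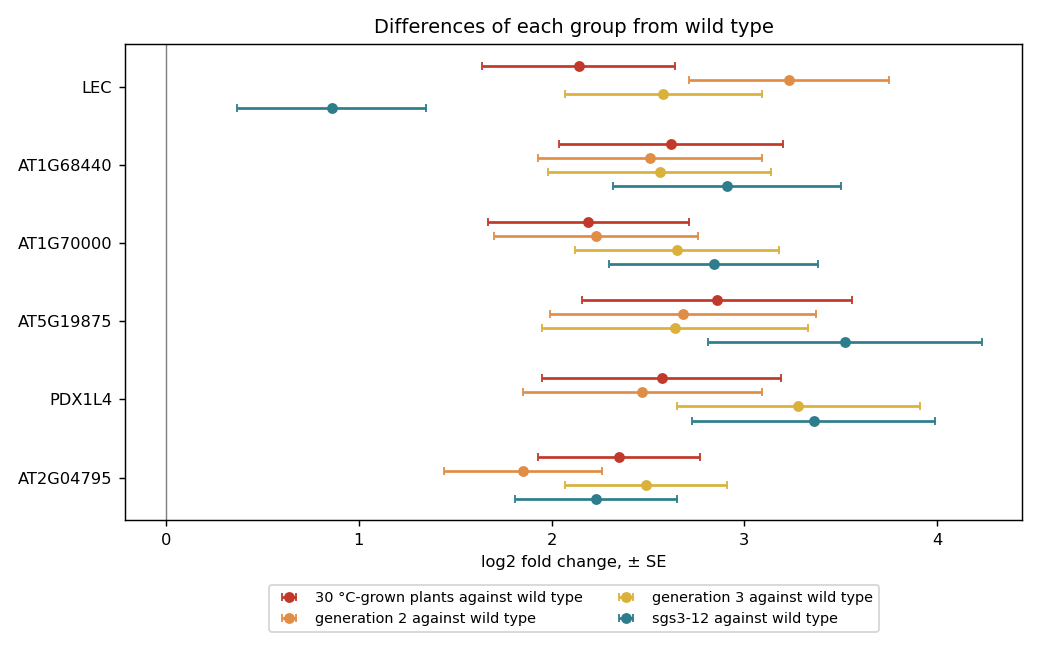
Log2 fold change (horizontal axis, with SE) of each of the 6 genes against wild type, in the 3 generations and in sgs3-12, n = 2 per group. All values are above 0, from 1.85 to 3.28 in the generations, and LEC in sgs3-12 is the lowest at 0.86.

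The comparisons between the generations ask whether the levels fell back or rose further once the plants were no longer in the heat. The choice of the genes does not fix the direction of these differences, but it limits how far a level could fall. A gene back at its wild-type level would not have been chosen, so the lack of such a return is not a result. The differences were tested with edgeR's quasi-likelihood test, adjusted over all 19768 genes. None of the 18 values (6 genes in 3 comparisons) passed, with a lowest edgeR adjusted p of 0.538, and 0 had an unadjusted p under 0.05. DESeq2 also called 0 of the 18, with a lowest adjusted p of 0.37. Over all genes edgeR called 0% in each comparison, against 1849 genes (9.35%) at an unadjusted p under 0.05 for generation 2 against generation 1, 1360 (6.88%) for generation 3 against generation 1 and 328 (1.66%) for generation 3 against generation 2. In the same order DESeq2 called 1.75%, 1.14% and 0.0101% of the genes.

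In generation 2 against 30 °C-grown plants, LEC had the largest difference, at 1.09 ± 0.48 on the log2 scale (SE; n = 2 in each group) with a 95% interval from -0.02 to 2.20 (edgeR adjusted p = 0.538). Both its generation 2 libraries lay above both 30 °C-grown libraries, as for 16.7% of all genes. AT2G04795 lay the other way, at -0.49 ± 0.40 with an interval from -1.40 to 0.41 and both libraries below, as for 18.7% of all genes (edgeR adjusted p = 0.727). The libraries of the other 4 genes overlapped. Their values were 0.04 ± 0.50 for AT1G70000, -0.10 ± 0.57 for PDX1L4, -0.11 ± 0.54 for AT1G68440 and -0.18 ± 0.64 for AT5G19875.

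Without library 1 of generations 2 and 3, which stand apart by transcript length (below), the LEC difference was 1.58 (edgeR adjusted p = 0.0366), with 788 genes called in all. This fit leaves generation 2 and generation 3 with 1 library each, which is assumed to vary like the other groups. Without library 1 of generation 2 alone it was 1.53 (edgeR adjusted p = 0.132), and without library 2 of generation 2 it was 0.26. Over its 17 alternatives the adjusted p ran from 0.0366 to 1.

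In generation 3 against 30 °C-grown plants the libraries of all 6 genes overlapped (among all genes, generation 3 lay wholly above for 22.5% and wholly below for 23.5%), and the log2 fold changes ran from -0.21 for AT5G19875 to 0.71 for PDX1L4. In generation 3 against generation 2 they ran from -0.64 for LEC to 0.81 for PDX1L4. AT2G04795 had both generation 3 libraries above both generation 2 libraries, as for 5.78% of all genes (6.27% lay wholly below), at 0.64 ± 0.40 with an interval from -0.27 to 1.54 (edgeR adjusted p = 1). The intervals were wide, and over the 18 values they reached down to 0.299 times and up to 4.58 times.

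**Figure D3:**
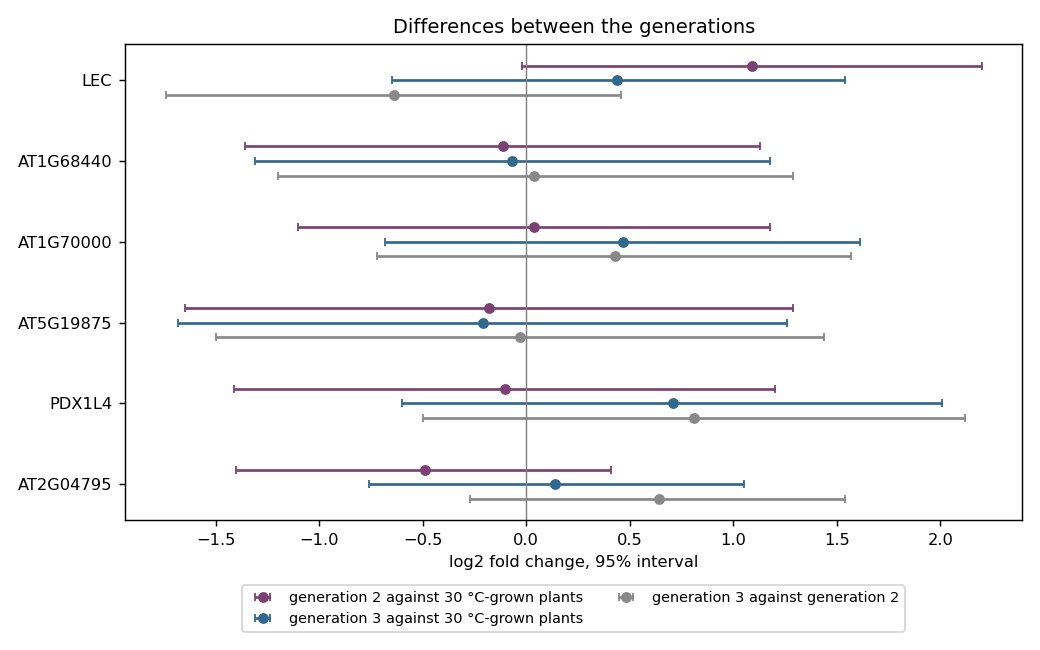
Log2 fold change (horizontal axis, with 95% interval) of each of the 6 genes between the generations, n = 2 per group. All 18 intervals include 0, the closest to excluding it being LEC in generation 2 against 30 °C-grown plants (1.09, from -0.02 to 2.20).

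Per transcript length, by the deposited FPKM values (fragments counted, scaled by transcript length and depth), LEC was the most abundant of the 6 genes in generation 2, at 59.4 and 159.6 FPKM, followed by AT1G68440 at 49.9 and 101.4 FPKM. Next came AT5G19875 at 10.1 and 33.7 FPKM, AT2G04795 at 12.8 and 14.3 FPKM, AT1G70000 at 10.9 and 11.2 FPKM, and PDX1L4 at 6.02 and 6.17 FPKM. LEC and AT1G68440 overlapped, as did AT5G19875 with AT2G04795 and with AT1G70000. The length implied for AT1G70000 by its counts and FPKM, 2430 bases, exceeds its locus of 1667 bases, so its FPKM is uncertain. For the other genes the implied length falls short of the longest reference transcript. It is 1068 against 1122 bases for LEC and 655 against 1098 bases for AT5G19875. The order by FPKM may therefore depend on the lengths used, and library 1 of generation 2 stands apart by transcript length (below). In generation 3, AT1G68440 was at 47.6 and 108.0 FPKM and LEC at 86.0 and 46.6 FPKM. In sgs3-12, AT1G68440 was the higher one, at 107.2 and 134.1 FPKM against 26.6 and 24.1 FPKM for LEC. In wild type the 6 genes were between 1.07 FPKM (PDX1L4) and 20.1 FPKM (AT1G68440).

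The relatives of LEC were followed as a list of 7 other soluble legume lectin genes, of which 6 were tested. AT3G16530, the closest, was at 19.2 and 34.2 CPM in wild type, at 78.3 and 48.8 CPM in generation 1, at 90.9 and 161.3 CPM in generation 2, at 178.6 and 82.5 CPM in generation 3, and at 21.6 and 29.1 CPM in sgs3-12. Like LEC it had all 6 generation libraries above wild type, and its sgs3-12 libraries lay within the range of wild type. It was the only one of the 6 tested with all generation libraries above wild type, beside 7.02% of all tested genes. The ratio of LEC counts to AT3G16530 counts was 0.685 and 0.393 in wild type and 0.603 to 1.17 in the other libraries.

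AT5G03350, another gene of the list, ranged from 17.7 to 376.8 CPM and was at 33.8 and 113.4 CPM in wild type. AT1G53070 was at 1.15 to 5.16 CPM and AT3G09190 at 0.778 to 5.88 CPM. edgeR called 0 of the 6 lectin genes between generations, and their median log2 fold change was 0.08 in generation 2 and -0.47 in generation 3 against 30 °C-grown plants, beside 0.07 and -0.01 for all tested genes.

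Among 7 other vitamin B6 genes, all tested, 3 had all 6 generation libraries above wild type, beside 7.02% of all tested genes: PDX1.1, PDX1.3 and PDX1.2. PDX1.1 was at 187 and 108.5 CPM in wild type, at 314.6 and 236 CPM in generation 1, at 325 and 450.3 CPM in generation 2, at 281 and 592 CPM in generation 3, and at 353 and 484 CPM in sgs3-12. PDX1L4 counts were 0.52% and 0.641% of PDX1.1 counts in wild type and 0.928% to 2.26% in the other libraries. The part of shared reads in the PDX1L4 counts was not tested.

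PDX1.3, the other main catalytic gene, was at 147 and 92.8 CPM in wild type, 177 to 520.2 CPM in the generations, and 233 and 358 CPM in sgs3-12. PDX1.2, a noncatalytic partner known to be raised by heat, was named after its values were seen. It was at 1.90 and 2.60 CPM in wild type, at 7.97 and 6.30 CPM in generation 1, at 2.97 and 2.87 CPM in generation 2, and at 3.32 and 3.70 CPM in generation 3. Its log2 fold change in generation 2 against 30 °C-grown plants was -1.29 ± 0.48 (SE; n = 2 in each; edgeR adjusted p = 0.49). PDX3 and PLR1, which act on the finished vitamin, were at 69.7 to 114.4 and 43.3 to 83.0 CPM. edgeR called 0 of the 7 genes between generations, with a median of 0.31 in generation 2 and 0.40 in generation 3 against 30 °C-grown plants.

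**Figure D4:**
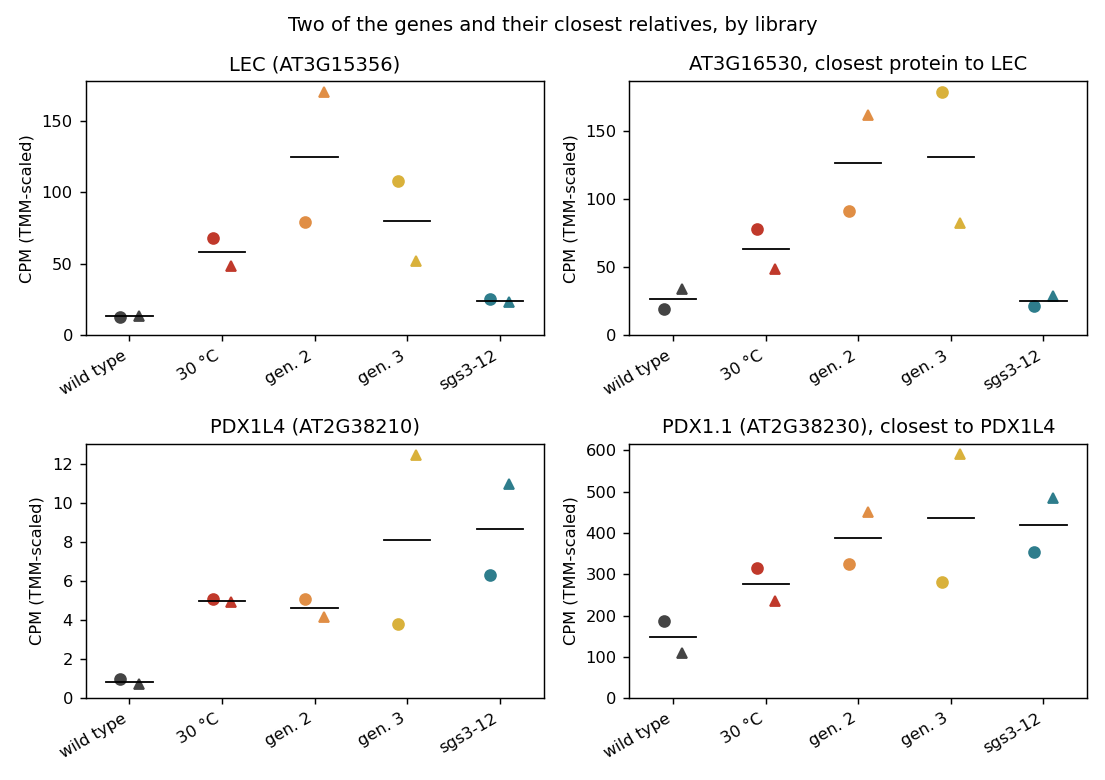
TMM-scaled CPM of LEC and its closest relative AT3G16530 (top) and of PDX1L4 and PDX1.1 (bottom), by group, with library 1 as a circle, library 2 as a triangle and the mean as a line. AT3G16530 in sgs3-12 (21.6 and 29.1 CPM) lies within the wild-type range, and PDX1.1 in sgs3-12 (353 and 484 CPM) lies above it.

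Of 8 other SHAQKY-type MYB-like genes, 7 were tested. AT1G19000 had 266 and 245.6 CPM in wild type and 226 to 459 CPM in the generations, AT1G74840 had 42.4 and 49.6 against 53.6 to 80.7 CPM, and AT5G47390, the closest protein to AT1G70000, had 38.5 and 33.1 against 35.5 to 45.8 CPM. AT5G08520 had 47.7 and 79.2 CPM in wild type and 21.01 to 69.3 CPM in the generations. Of the 7, 2 had all 6 generation libraries above wild type, beside 7.02% of all tested genes, AT1G74840 and AT5G56840 (the latter at 1.42 and 0.973 against 2.43 to 7.23 CPM, named after its values were seen). edgeR called 0 of the 7 between generations, and their median log2 fold change against 30 °C-grown plants was 0.08 in generation 2 and 0.01 in generation 3.

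The genes whose profile was most like each of the 6 were sought by Pearson's r of log2(CPM + 1) over the 10 libraries, among 14050 other genes with a mean of 5 CPM or more. For LEC they were MTP1, a vacuolar zinc transporter gene (r = 0.980), VQ4 (0.964) and AT2G41420 (0.948). MTP1 was at 26.4 and 26.9 CPM in wild type, 34.2 to 52.3 CPM in the generations, and 33.2 and 31.8 CPM in sgs3-12. For AT1G68440 they were CSN7, a subunit of the COP9 signalosome (0.967), GPX7 (0.966) and AT5G58770 (0.961). AT1G70000 was close to SKIP25 (0.978) and NIT1 (0.971), and PDX1L4 to AT4G28100 (0.973) and UP6 (0.968). For AT5G19875 they were AT3G21690 (0.957), PRS2 (0.957) and AT4G21990, an adenylylsulfate reductase gene (0.955), and for AT2G04795 they were AT1G75810 (0.952), NPF6.3, a nitrate transporter (0.949), and AT3G23570 (0.946).

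Those r are the highest of many and the wild-type libraries lie apart in each, so they are a description. Over the 8 libraries without wild type, r was 0.959 for LEC with MTP1 and 0.897 for AT1G70000 with SKIP25, but 0.579 for AT2G04795 with AT1G75810 and 0.691 with NPF6.3. SKIP25, an F-box protein gene, was at 11.8 and 9.09 CPM in wild type, at 26.9 to 56.3 CPM in the generations, and at 38.7 and 49.7 CPM in sgs3-12.

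Some libraries stood apart by transcript length. The slope of log2 CPM on transcript length, for each 10-fold increase, was -2.61 in library 1 of generation 2 and -1.42 in library 1 of generation 3. In the remaining 8 libraries it lay between -0.51 and 1.40, with 0.91 and 0.71 in wild type beside 1.40 and 0.90 in sgs3-12. The 500 tested genes nearest in length to each of the 6 had medians of 0.12 to 0.60 above their mean over all libraries in library 1 of generation 2, of 0.08 to 0.34 in library 1 of generation 3, and of -0.19 to -0.02 in wild type. The 6 genes themselves lay at -2.83 to -1.36 in wild type. With an offset for length in each library the 18 log2 fold changes against wild type ran from 1.41 to 2.97, and without these libraries from 1.81 to 3.93.

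**Figure D5:**
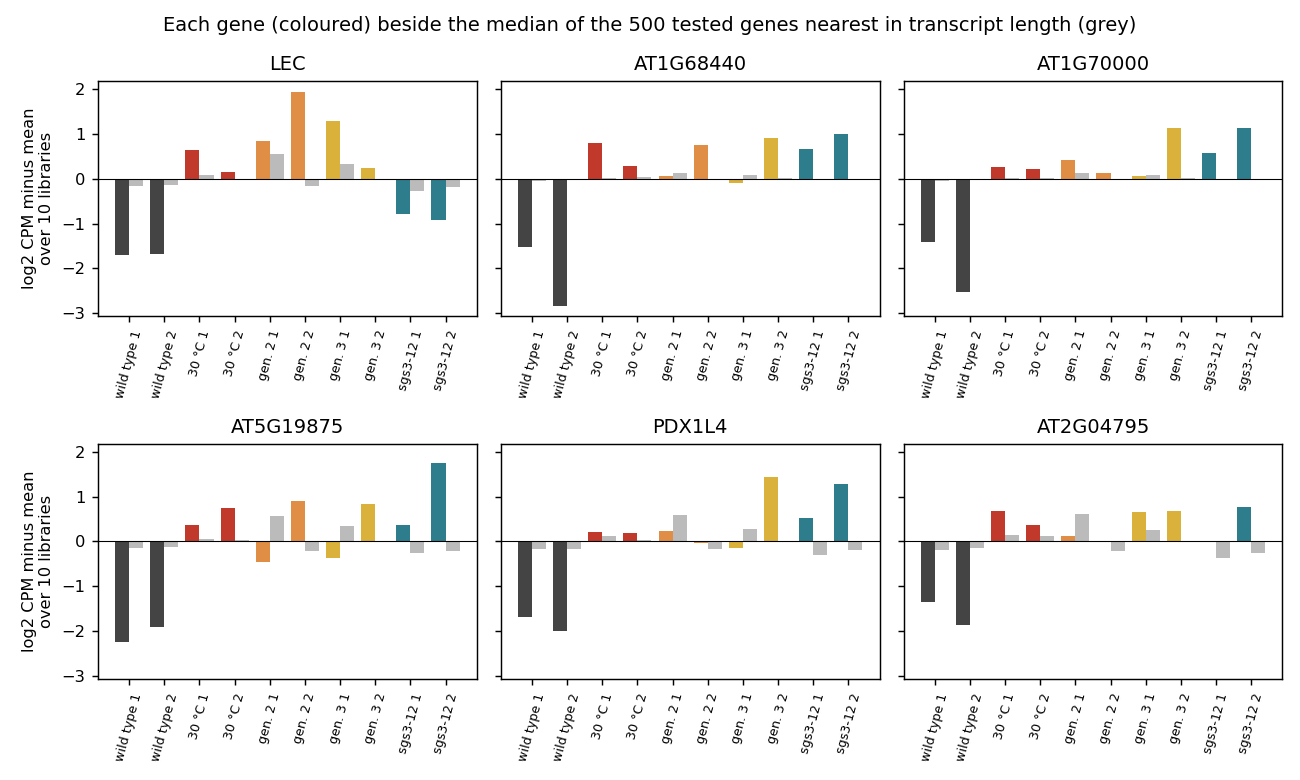
Log2(CPM + 0.5) of each gene minus its mean over the 10 libraries (coloured bars) beside the median of the same measure over the 500 tested genes nearest in transcript length (grey bars). In wild type the 6 genes lie at -2.83 to -1.36 and the genes of like length at -0.19 to -0.02.

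Some genes of the circadian clock also lay outside the range of the wild-type pair, a difference that was not tested. Of 9 clock genes, all tested, 2 had all 6 generation libraries below both wild-type libraries, PRR7 and GI, as for 8.94% of all tested genes (GI named after its values were seen). PRR7, a repressor expressed during the day, was at 299.9 and 361 CPM in wild type, at 34.9 to 96.3 CPM in the generations, and at 63.9 and 51.3 CPM in sgs3-12. GI, which peaks late in the day, was at 42.9 and 145.9 CPM in wild type, at 3.65 to 19.96 CPM in the generations, and at 10.9 and 17.2 CPM in sgs3-12.

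The morning genes CCA1 and LHY differed between the wild-type libraries, at 110.3 and 13.8 CPM and at 21.6 and 4.08 CPM, and library 1 was also the higher one for 4 of the 6 genes, all but LEC and AT5G19875. CCA1 was at 76.6 and 91.4 CPM in generation 1 and at 34.5 and 344 CPM in generation 2. It was at 52.4 and 270.0 CPM in generation 3 and at 372.5 and 302 CPM in sgs3-12. Of the 6 genes, only AT5G19875 was higher in the library with more CCA1 in generation 1. In generation 2 this held for LEC, AT1G68440 and AT5G19875, in generation 3 for all but LEC, and in sgs3-12 for LEC alone. PRR9, another clock repressor, had 81.5 and 18.6 CPM in wild type and 15.2 to 65.7 CPM in the generations. LHY was at 40.6 and 37.5 CPM in generation 1 and at 20.8 and 292.1 CPM in generation 2. It was at 31.4 and 303.8 CPM in generation 3 and at 489 and 407 CPM in sgs3-12. Clock genes with a pair of libraries wholly below the wild-type pair numbered 3 of 9 for generation 1, 3 for generation 2, 4 for generation 3 and 6 for sgs3-12, beside 25.2%, 17.2%, 22.2% and 24.6% of all genes. Those wholly above numbered 1, 0, 1 and 2 of 9, beside 26.3%, 16.8%, 21.1% and 27% of all genes. With all libraries, the log2 fold change of LHY against wild type was 1.60, 3.60, 3.70 and 5.12 in the same order. The median log2 fold change of the 9 against wild type was -2.01, -2.48, -2.58 and -2.73 in that order, beside -0.02, 0.11, 0.04 and 0.01 for all tested genes. In wild type, library 2 was far above library 1 for PRR5 (126.9 against 4.07 CPM) and TOC1 (163.2 against 14.3 CPM). The same held for ELF4 (39.1 against 1.4 CPM) and LUX (73.8 against 4.07 CPM), these 4 named after their values were seen. The medians are given with all libraries only, and how far they rest on wild-type library 2 was not tested. The part of clock phase in the levels of the 6 genes was not tested. Between generations edgeR called 0 of the 9 clock genes.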

How the data were processed

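The authors deposited read counts per gene for 10 libraries and FPKM values, in columns named so per the file headers. HISAT2 2.0.4, StringTie 1.3.0 and TAIR10 are named in the submitters' processing notes. The sources used here do not state the counting program or its strand setting. Of the per-sample columns, 2 FPKM columns that share 1 name were not used.

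The 6 genes, the lists and the tests were chosen with earlier results of these data known. Counts were fitted with edgeR 4.0.16 (R 4.3.3; quasi-likelihood F-test, group as the only factor, TMM, filterByExpr, 19768 genes kept, Benjamini-Hochberg over all of them, called at 0.05). SE is the absolute log2 fold change divided by the square root of F. DESeq2 1.42.0 was an alternative. Simulated counts with 200 changed genes were run through both tools, with an outcome that is not reported here. BLAST 2.17.0 compared transcripts and translated coding sequences of TAIR10.1. Of 32835 loci matched by locus tag, 32834 overlapped the same locus there.

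Genes named were the 6, the 3 most like each (1 gene is not reported here), their flanking and closest genes, and up to 4 of each list by mean CPM, plus those said to be named after their values were seen. Depth was 17674090 to 23145159 counts per library.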

Additional observations from a re-analysis of the deposited data

How the results depend on the processing

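Against wild type, the 18 log2 fold changes of the 3 generations ran from 1.41 to 3.93 over the 17 alternatives run for each, all positive, a sign that the choice of the genes fixes. Between generations, edgeR called 0 genes in each comparison, DESeq2 345, 225 and 2 (generation 2 and generation 3 against 30 °C-grown plants, then generation 3 against generation 2). Leaving out 1 library gave 0 to 487, 0 and 0 to 252 calls, the high counts without library 1 of generation 2, and leaving out library 1 of generations 2 and 3 gave 788 in the first. The 1388 genes with all generation libraries above wild type became 1108 with unscaled CPM, 2423 without library 1 of generations 2 and 3, and 1388 to 3547 when 1 library was left out, 3547 and 3378 without wild-type library 1 or 2, where fewer libraries have to be exceeded. Of the 18 between-generation values of the 6 genes, 14 changed sign under at least 1 alternative. In generation 2 against 30 °C-grown plants, values without 1 library ran from -0.67 to 0.19 for AT1G68440, from -0.11 to 0.04 for AT1G70000 and from -1.22 to 0.36 for AT5G19875. Without library 1 of generations 2 and 3 they were 0.23, -0.07 and 0.40, and AT1G70000 was at -0.03 with no filter and -0.05 with the length offset. In generation 3 against 30 °C-grown plants they ran from -0.17 to 0.88 for LEC, -0.67 to 0.36 for AT1G68440, -0.18 to 0.91 for AT1G70000, -0.96 to 0.28 for AT5G19875, -0.40 to 1.32 for PDX1L4 and -0.04 to 0.28 for AT2G04795, and without library 1 of generations 2 and 3 LEC was at -0.13, AT1G68440 at 0.40 and AT5G19875 at 0.32. In generation 3 against generation 2 they ran from -1.26 to 0.14 for LEC, -0.55 to 0.58 for AT1G68440, -0.22 to 0.87 for AT1G70000, -0.78 to 0.99 for AT5G19875 and -0.30 to 1.43 for PDX1L4. The cause was not tested. With the replicate number as a block, edgeR again called 0 genes in each comparison. The LEC difference in generation 2 against 30 °C-grown plants was then 1.12. Deviations of same-numbered libraries correlated from -0.27 to 0.50, the highest for generation 2 with generation 3. The numbers were not taken as pairs, although generations 2 and 3 shared some structure by number.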

Other observations

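Genes of anthocyanin and flavonoid synthesis, the pathway that AT1G70000 is known to promote, had 14 listed members, of which 9 were tested. Chalcone synthase, CHS, the entry enzyme of the pathway, was at 78.2 and 1.53 CPM in wild type, at 21.1 and 51.1 CPM in generation 1, at 20.6 and 472 CPM in generation 2, at 31.7 and 573 CPM in generation 3, and at 284.6 and 285 CPM in sgs3-12. F3H followed the same order of libraries in the progeny, at 4.99 and 83.7 CPM in generation 2 and at 7.16 and 71.2 CPM in generation 3. MYBL2, a repressor of the pathway, was at 183 and 174.5 CPM in wild type, 98.3 to 285 CPM in the generations, and 20.01 and 25.7 CPM in sgs3-12. TTG1 was at 22.6 to 43.6 CPM in all libraries. The later anthocyanin enzyme genes were near 0, named after their values were seen. DFR was at 0 to 0.168 CPM, LDOX at 0 to 0.972 CPM and UF3GT at 0 to 0.224 CPM. Of the 9 genes, 1 had all 6 generation libraries above wild type, beside 7.02% of all tested genes. This was HY5, at 4.38 and 4.26 CPM in wild type, 6.51 to 13.2 CPM in the generations, and 19.8 and 20.8 CPM in sgs3-12. Between generations edgeR called 0 of the 9 genes. HY5, a light-signalling regulator, was named after its values were seen.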
